A study of Mus musculus with 48 samples.

Results

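TRBV17, TRBV23, TRBV24 and TRBV30 are the mouse T cell receptor β variable segments also called Vβ9, Vβ20, Vβ17 and Vβ18. They were chosen by name, as every row carrying one of these V segments in the 48 clone tables of the study, and made up 4 of the 26 V segments and 40521 of the 959731 rows. TRBV17 held 29246 rows, TRBV23 held 5736, TRBV30 held 2870 and TRBV24 held 2669.

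The repertoires came from 4 female C57BL/6 mice, numbered 5 to 8 and 8 weeks old, that carried a subcutaneous Lewis lung carcinoma (LLC, a transplantable mouse lung tumor line) on the left and on the right side of the back and received no other treatment that the labels name. On day 13, T cells outside the blood vessels (negative for an intravenous CD45.2 stain) were sorted from each tumor and from each tumor-draining lymph node (dLN), giving the groups CD4 dLN, CD4 tumor, CD8 dLN and CD8 tumor. The dLN cells were sorted as CD44hi, whereas the tumor cells had no CD44 gate, so organ and gate cannot be told apart in any tumor against dLN comparison. Each tumor was cut into a pair of fragments sequenced as separate libraries, which were summed here, so that each group held 8 repertoires from 4 mice and the mouse was the replicate.

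A T cell builds its β chain by joining one V, one D and one J segment, and the joint forms CDR3, the loop that contacts the peptide. The V segment brings the first bases of CDR3, starting at a conserved cysteine codon, and the J segment brings the last ones, ending at a conserved phenylalanine. All cells descended from one T cell carry the same joint. The share of distinct clones that use a segment therefore follows how often the segment is rearranged and selected, whereas its share of reads also follows how far each clone has grown and how much receptor RNA each cell holds. Cell number and RNA per cell cannot be told apart in these bulk libraries.

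The 4 segments differ in their germline ends. The last 12 bases before the CDR3 cysteine codon and the germline part of CDR3 are shown here for each member, with TRBV26, which lies close to TRBV24 on the chromosome, for comparison. They were read from the GENCODE M21 transcripts of the GRCm38 assembly, and capitals mark a stop codon in the reading frame of the cysteine.
TRBV17 germline: gccatgtacctctgtgctagcagtagaga
TRBV23 germline: gcactgtacttgtgctccagcagtcaatc
TRBV24 germline: gcactgTAGctctgtgccagcagtctgta
TRBV26 germline: gcactgtacctctgtgccagcagtctgtc
TRBV30 germline: agtatctatttctgtagttctagaga

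TRBV24 was the only one of these 5 segments with a stop codon in the frame of its cysteine, and the stop stood 2 codons before that cysteine. GENCODE annotates Trbv24 (ENSMUSG00000102955) as a V pseudogene at chr6:41218091-41218557 on the plus strand. Trbv17 (ENSMUSG00000076474, chr6:41163062-41163556), Trbv23 (ENSMUSG00000076478, chr6:41216073-41216526) and Trbv30 (ENSMUSG00000076481, chr6:41281376-41281990) are annotated as V genes on the same strand. The stop lies outside CDR3, the region in which the study kept productive sequences. Of the 2669 TRBV24 rows, 53 (1.99%, with 0.121% of the reads) shared their CDR3 and J segment with a clone of another V segment that had at least 100 times the reads in the same library. Whether reads of TRBV26 were assigned to TRBV24 was not tested further. Whether a TRBV24 transcript yields a receptor was not tested either, so its shares below describe transcripts. The germline CDR3 part was 17 bases in TRBV17, TRBV23, TRBV24 and TRBV26 and 14 bases in TRBV30. The most common first 9 bases of the deposited CDR3s were those of the germline and stood in 97.1% of TRBV17, 96.6% of TRBV23, 94.9% of TRBV24 and 88.6% of TRBV30 clones.

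The deposited libraries held 326582 to 4840722 reads, with a median of 1492390. To match reads to cell number, each library was subsampled to 6 reads for every sorted cell, as the study did, which left 131070 to 2035380 reads and 3606 to 47086 distinct clones per library. The tables hold receptor sequences only, so the sorted subset could not be checked against other genes. Of the member clones, 0 to 4.12% in each group were also present in the other subset of the same mouse and organ, against 1.13 to 4.28% of the clones of all V segments. The labels name no batch. The lineage antibodies of the dLN and tumor sorts also differed, with Ly6G in the dLN sorts and Ter119 in the tumor sorts.

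By distinct clones, TRBV17 was a CD8 segment and the other 3 were more frequent among CD4 clones. TRBV17 made up 3.24 to 3.85% of CD8 dLN clones (median 3.55%) and 1.11 to 1.22% of CD4 dLN clones (median 1.17%), and the groups did not overlap. Its clone share was 3.56% ± 0.195 (SD, n = 4 mice) in CD8 dLN and 1.17% ± 0.0173 in CD4 dLN. The log2 ratio of CD4 over CD8 was -1.61 ± 0.05 (SE, adjusted p = 2.3e-13, edgeR quasi-likelihood test with Benjamini-Hochberg adjustment over the 23 V segments with enough clones). In the tumors the same contrast was 1.75% ± 0.129 against 3.86% ± 0.115, a log2 ratio of -1.14 ± 0.06 (adjusted p = 3.49e-20, edgeR). All 4 mice had the lower value in CD4 in both organs.

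TRBV23 went the other way. Its clone share was 0.921% ± 0.0765 in CD4 dLN and 0.453% ± 0.0296 in CD8 dLN, without overlap between the repertoires (log2 ratio 1.02 ± 0.07, adjusted p = 2.14e-09, edgeR). In the tumors it was 0.780% ± 0.151 in CD4 and 0.547% ± 0.0342 in CD8 (log2 ratio 0.48 ± 0.09, adjusted p = 5.09e-06, edgeR). TRBV24 had a clone share of 0.275% ± 0.0400 in CD4 dLN and 0.170% ± 0.0159 in CD8 dLN, a log2 ratio of 0.70 ± 0.11 (adjusted p = 3.86e-05, edgeR). TRBV30 had 0.402% ± 0.0381 in CD4 dLN and 0.290% ± 0.0134 in CD8 dLN, a log2 ratio of 0.46 ± 0.08 (adjusted p = 5.89e-05, edgeR). In the tumors the CD4 over CD8 log2 ratios of TRBV24 and TRBV30 were 0.59 ± 0.10 and 0.45 ± 0.11 (adjusted p = 2.6e-06 and 0.000401, edgeR). All 4 members were called in both contrasts, where 95.7% of all tested V segments were called in dLN and 82.6% in tumors, so a call as such did not set the members apart. DESeq2, whose size factors moved the median log2 ratio of all segments by -0.35 in dLN and -0.25 in tumors, called 3 of the 4 in each organ, beside 87% of all segments in dLN and 73.9% in tumors, and gave log2 ratios in dLN and tumors of 0.67 and 0.24 for TRBV23, 0.35 and 0.35 for TRBV24, and 0.10 and 0.20 for TRBV30, whose calls were the ones lost. Without mouse 8 the tumor value of TRBV30 was 0.27 and passed (adjusted p = 0.0493, edgeR).

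The order of the 4 segments by clone share was TRBV17, TRBV23, TRBV30 and TRBV24 in both dLN groups. TRBV17 ranked 15 of 23 in CD8 dLN and 19 of 23 in CD4 dLN. TRBV23 ranked 20 in all 4 groups. TRBV24 and TRBV30 shared ranks 21 and 22 and changed places between organs: TRBV30 was ahead in dLN and TRBV24 in tumors, although their repertoires overlapped in CD4 dLN (0.223 to 0.352% for TRBV24, 0.297 to 0.499% for TRBV30), CD4 tumor and CD8 tumor. Only TRBV21 among the tested segments ranked lower.

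**Figure D1:**
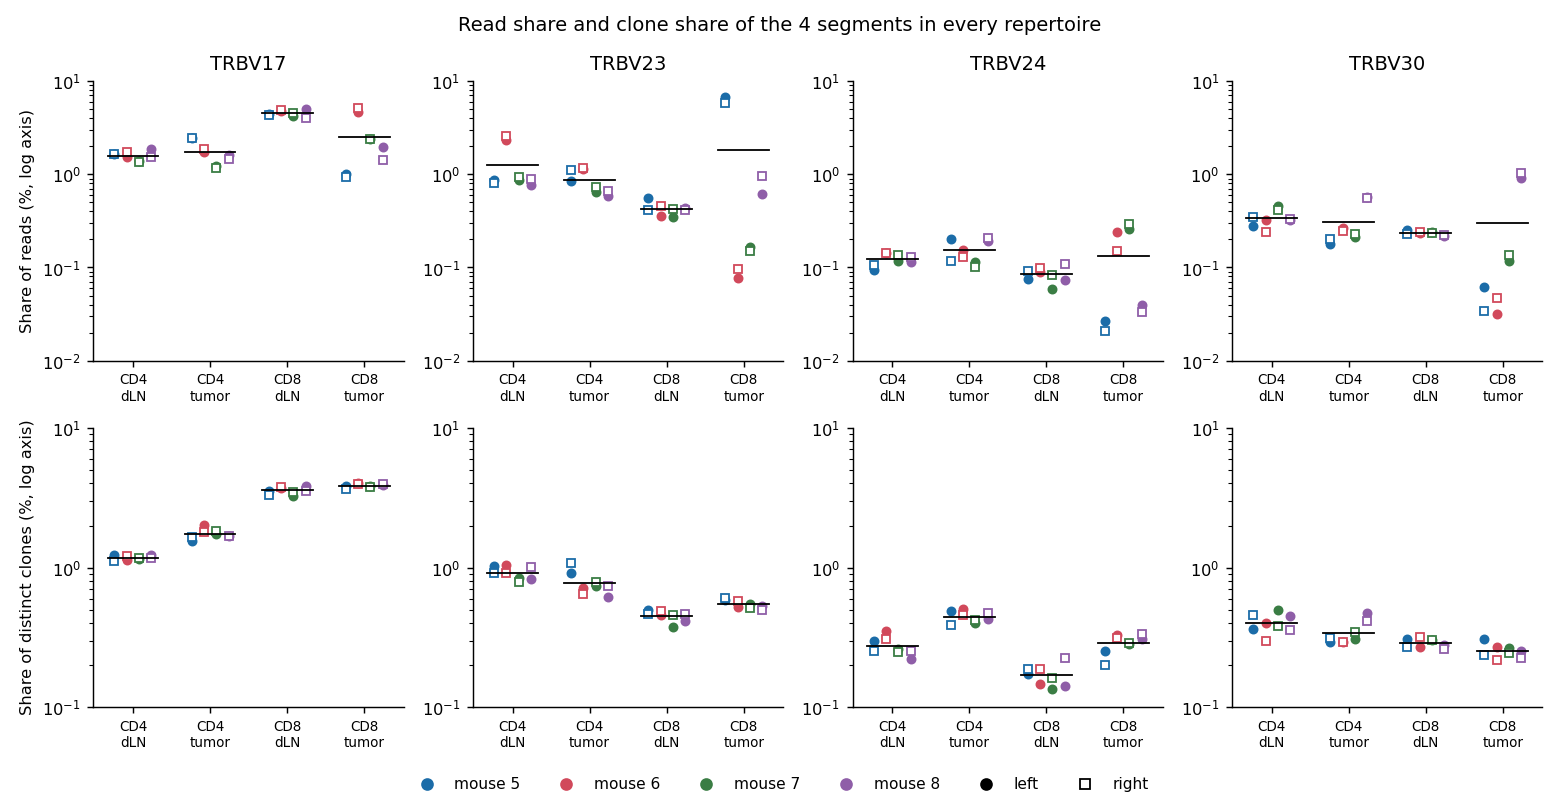
Share of reads (upper row) and of distinct clones (lower row) of each segment in every repertoire, in percent on log axes, by group; color marks the mouse, filled circles the left side, open squares the right side, and black lines the mean of the 4 mice. Clone shares lie close together within each group, whereas read shares in CD8 tumors spread from 0.0767 to 6.81% for TRBV23 and from 0.0318 to 1.04% for TRBV30.

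With library totals, clone shares moved less between tumor and dLN than they differed between subsets, apart from TRBV24. With DESeq2 this did not hold for TRBV30, which changed by -0.13 in CD8 against a subset difference of 0.10 in dLN. TRBV24, the segment with the germline stop codon, rose in both subsets. Its CD8 clone share was 0.202 to 0.333% in tumors (median 0.299%) and 0.136 to 0.224% in dLN (median 0.167%), so the groups overlapped in a narrow range. The log2 ratio of tumor over dLN was 0.78 ± 0.08 in CD8 (adjusted p = 2.45e-16, edgeR), higher in 4 of 4 mice. In CD4 its clone share was 0.386 to 0.508% in tumors and 0.223 to 0.352% in dLN without overlap, a log2 ratio of 0.67 ± 0.11 (adjusted p = 3.39e-05, edgeR). The difference between the subsets in this change was 0.11 ± 0.16 on the log2 scale and did not pass its test (adjusted p = 0.526, edgeR interaction term, a test added after the design was written).

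TRBV17 clones were also more frequent in tumors. The log2 ratio was 0.58 ± 0.07 in CD4 (1.75% against 1.17% of clones, adjusted p = 5.88e-07, edgeR), where the groups did not overlap, and 0.12 ± 0.03 in CD8 (3.86% against 3.56%, adjusted p = 0.000302, edgeR), where they did. The CD8 value was 0.18 with TMM factors or DESeq2 and 0.21 with an equal number of reads, and passed in each. The change was smaller in CD8 than in CD4 by 0.47 ± 0.07 (adjusted p = 2.08e-06, edgeR interaction term). Of the TRBV17 clones of CD4 tumors, 4.12% were also found in the CD8 cells of the same tumors and 0.390% were at least 10 times more frequent there. Without these the CD4 log2 ratio was again 0.58.

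TRBV23 rose among CD8 clones (0.547% against 0.453%, log2 ratio 0.25 ± 0.06, adjusted p = 6.75e-05, edgeR) and fell among CD4 clones (0.780% against 0.921%, log2 ratio -0.29 ± 0.10, adjusted p = 0.0217, edgeR). The changes differed between the subsets by 0.54 ± 0.12 (adjusted p = 0.000153, edgeR interaction term). The CD4 call rested on 3 of 4 mice and was lost without mouse 6 (log2 ratio -0.20) or mouse 8 (-0.22), with TMM factors (-0.11) or DESeq2 (-0.12), with limma on log2 percent (adjusted p = 0.0925) and in the exact permutation test over mice (adjusted p = 0.208). TRBV30 fell among CD8 clones (0.253% ± 0.0153 against 0.290% ± 0.0134, log2 ratio -0.20 ± 0.07, adjusted p = 0.0114, edgeR), in 4 of 4 mice. That call was lost with TMM factors (-0.14, adjusted p = 0.0706), with DESeq2 (-0.13, adjusted p = 0.140), without mouse 6 (-0.18, adjusted p = 0.0513, edgeR) and without mouse 7 (-0.18, adjusted p = 0.0579, edgeR). In CD4 its log2 ratio was -0.20 ± 0.13 (adjusted p = 0.135, edgeR), and it passed without mouse 8 (-0.36, adjusted p = 0.0242, edgeR) and was -0.03 with TMM factors and -0.05 with DESeq2. Of all tested segments, 87% were called in CD8 and 65.2% in CD4, and the members were 4 of 4 and 3 of 4. The CD8 calls of TRBV17 and TRBV30 were lost in an exact permutation test over mice (adjusted p = 0.0692 for each), which called 69.6% of all segments in CD8.

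By reads, the picture in dLN resembled that by clones. TRBV17 made up 4.03 to 5.00% of CD8 dLN reads and 1.35 to 1.86% of CD4 dLN reads. The log2 ratio of CD4 over CD8 was -1.52 ± 0.08 for TRBV17, 1.55 ± 0.37 for TRBV23, 0.52 ± 0.12 for TRBV24 and 0.53 ± 0.12 for TRBV30. The adjusted p-values from edgeR were 2.27e-07 for TRBV17 and 0.00377 to 0.00378 for the other 3. All 4 passed, beside 87% of all tested segments. Mouse 6, with the highest TRBV23 share in CD4 dLN, moved the TRBV23 value most, to 0.98 when it was left out, which still passed (adjusted p = 0.000118, edgeR). With TMM factors or with DESeq2, 2 of the 4 passed, beside 78.3% and 73.9% of all segments. The calls of TRBV24 and TRBV30 were lost, each at a log2 ratio of 0.26 (TRBV24 adjusted p = 0.0747 with TMM factors and 0.138 with DESeq2, TRBV30 adjusted p = 0.0849 and 0.122).

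In the CD8 tumors, the read shares of the members varied widely between mice. By reads, no member passed the test in CD8 tumor against dLN, CD4 tumor against dLN or tumor CD4 against CD8. The count was also 0 of 4 at an unadjusted p under 0.05, with limma and with the exact permutation test. With so few mice, the permutation test can call a segment only if most tested segments reach its smallest possible p. Its result by reads therefore says little. DESeq2 called none of the members that it gave an adjusted p, which were 4 in CD4 tumor against dLN and 2 in each of the other comparisons, where TRBV23 and TRBV30 had none. The shares of all tested segments called by reads were 43.5%, 34.8% and 13%. TRBV17 held 4.53% ± 0.246 of CD8 dLN reads and 2.49% ± 1.71 of CD8 tumor reads. TRBV23 held 0.426% ± 0.0437 and 1.84% ± 3.01, TRBV24 0.0849% ± 0.0102 and 0.133% ± 0.123, and TRBV30 0.234% ± 0.00994 and 0.299% ± 0.456. For each of the 4 segments the SD between mice was several times larger in the CD8 tumors than in the CD8 dLNs.

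The log2 ratios of CD8 tumor over dLN by reads were -0.87 ± 0.46, 2.11 ± 1.13, 0.66 ± 0.70 and 0.36 ± 0.91 for TRBV17, TRBV23, TRBV24 and TRBV30 (adjusted p = 0.147, 0.147, 0.44 and 0.771, edgeR). In CD4 they were 0.15 ± 0.21, -0.56 ± 0.40, 0.34 ± 0.20 and -0.13 ± 0.35 (adjusted p = 0.717, 0.332, 0.266 and 0.788, edgeR). Leaving out each mouse in turn gave CD4 values from -0.04 to 0.23, from -0.77 to -0.19, from 0.20 to 0.50 and from -0.62 to 0.13, so the direction turned for TRBV17 and TRBV30. These compare mean shares, so a single mouse with a high share carries the mean. TRBV23 was highest in one mouse: 6.81% (left) and 5.85% (right) of CD8 tumor reads in mouse 5, 0.607 and 0.955% in mouse 8, 0.166 and 0.150% in mouse 7, and 0.0767 and 0.0953% in mouse 6. Mice 5 and 8 therefore stood above all CD8 dLN repertoires (0.345 to 0.555%), and mice 6 and 7 stood below all of them. Without mouse 5 the log2 ratio of TRBV23 was -0.24, with the mouse as a block it was 0.09, and with DESeq2, which gave no adjusted p, it was 3.23. For TRBV17 it was -1.39 and passed without mouse 6 (adjusted p = 0.0361, edgeR), and it was -0.46 with TMM factors and 0.06 with DESeq2 (adjusted p = 0.451 and 0.930). TRBV30 was highest in mouse 8, at 0.922 and 1.04%, while the other 6 CD8 tumor repertoires held 0.0318 to 0.138% and the CD8 dLNs 0.218 to 0.253%. Without mouse 8 the log2 ratio of TRBV30 turned to -1.73 and passed the test (adjusted p = 0.0433, edgeR). Without mouse 5, 6 or 7 it was 0.62 to 0.73, with TMM factors 0.91, with DESeq2 1.06 (no adjusted p) and with the mouse as a block -1.09, and none of these passed. TRBV24 stayed below 0.3% in every repertoire, with its highest CD8 tumor shares in mouse 7 (0.257 and 0.293%) and its lowest in mouse 5 (0.0265 and 0.0210%), and its log2 ratio ran from -0.01 (without mouse 7) to 1.02 (without mouse 8) when each mouse was left out, and was -0.03 with limma on log2 percent and 1.43 with DESeq2 (adjusted p = 0.0766), none of them called.

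Single clones made up most of the highest shares of TRBV23 and TRBV30. The CDR3 sequences of the leading tumor clone of each segment are given here from the deposited tables, with the bases between the V and the J part (the D segment and added bases) in capitals. The CD8 leaders come first, then the CD4 leaders of TRBV17, TRBV23, TRBV24 and TRBV30.
TRBV17 TRBJ2-5 CD8: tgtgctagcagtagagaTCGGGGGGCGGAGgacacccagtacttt
TRBV23 TRBJ2-7 CD8: tgctccagcagtcaatcGGGGGGGTCc
TRBV24 TRBJ2-3 CD8: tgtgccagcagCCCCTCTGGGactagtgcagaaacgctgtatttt
TRBV30 TRBJ2-2 CD8: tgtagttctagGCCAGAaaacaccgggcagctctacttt
TRBV17 TRBJ2-7 CD4: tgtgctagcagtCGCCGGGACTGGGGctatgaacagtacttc
TRBV23 TRBJ1-1 CD4: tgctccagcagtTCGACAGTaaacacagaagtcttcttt
TRBV24 TRBJ2-7 CD4: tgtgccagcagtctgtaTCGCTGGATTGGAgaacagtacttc
TRBV30 TRBJ2-1 CD4: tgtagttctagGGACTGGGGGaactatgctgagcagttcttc

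In CD8 tumors each leader belonged to one mouse and was large on both sides of it. The TRBV23 TRBJ2-7 clone held 6.63% of the CD8 reads of the left tumor of mouse 5 (95% Wilson interval 6.58 to 6.67%, counting error only) and 5.70% of the right tumor. It made up 97.4 and 97.5% of all TRBV23 reads there, and without it the segment stood at 0.179 and 0.149%. It was also drawn in both dLNs of mouse 5, at 0.139 and 0.00972% of CD8 reads. No read of it was drawn in the 6 CD8 tumor repertoires of the other mice, where a count of 0 allows a share of up to 0.000177%.

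The TRBV17 TRBJ2-5 clone held 3.70 and 3.99% of CD8 tumor reads in mouse 6, or 79.9 and 76.9% of the TRBV17 reads. Without it TRBV17 stood at 0.932% (left) and 1.19996% (right) in mouse 6, on either side of the 0.943 to 1.01% of mouse 5. In the dLNs of mouse 6 the clone held 0.0271 and 0.0115%. These were the only member clones above 1% of a tumor as a mean of both sides.

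The TRBV30 TRBJ2-2 clone held 0.805 and 0.931% of CD8 tumor reads in mouse 8, or 87.3 and 89.7% of the TRBV30 reads, against 0.00869 and 0.0119% in the dLNs. The TRBV24 TRBJ2-3 clone held 0.212 and 0.118% in mouse 6, or 87.5 and 77.4% of the TRBV24 reads, against 0.00258% in the left dLN and no drawn read in the right one. The highest TRBV24 shares, in mouse 7, held another clone, which was looked up after the shares were seen and is shown here.
TRBV24 TRBJ2-1 CD8, mouse 7: tgtgcTGGtgctgagcagttcttc

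It held 0.137 and 0.178% of the CD8 tumor reads of mouse 7, or 53.1 and 60.8% of the TRBV24 reads, and without it TRBV24 stood at 0.121 and 0.115%. No read of it was drawn in the CD8 dLNs or in the CD8 tumors of the other mice. Each of the 4 CD8 leaders was a larger share of the tumor than of the dLN on both sides. As the leaders were picked for their tumor shares, this is a description without a test.

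**Figure D2:**
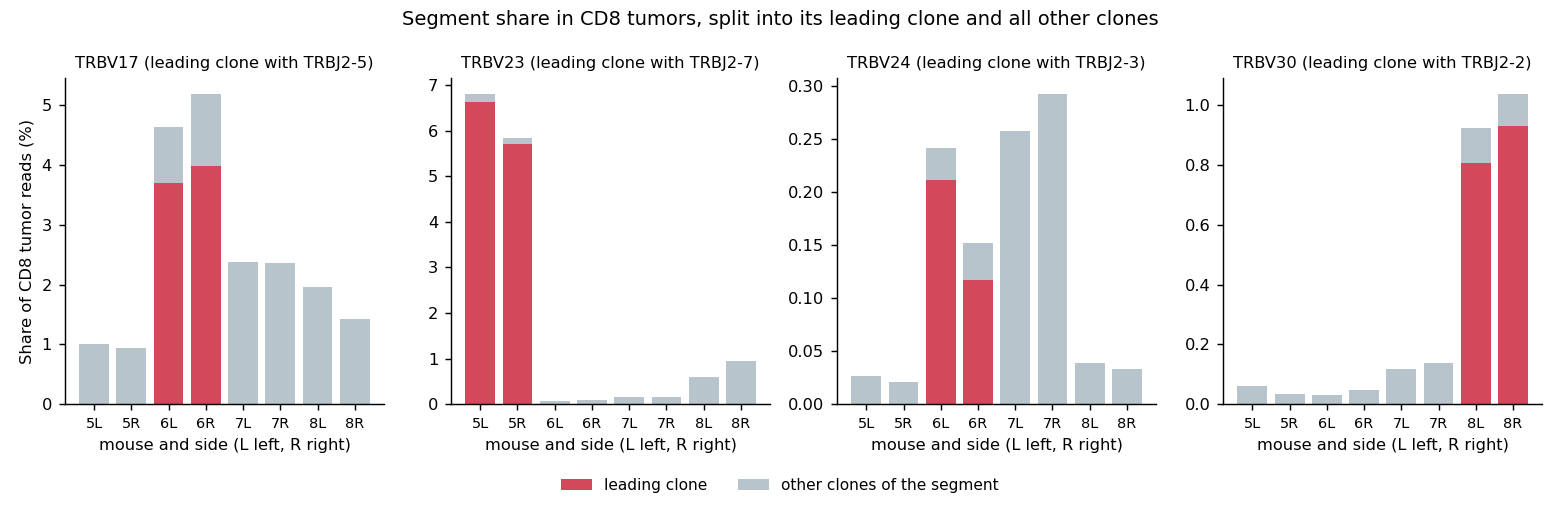
Share of CD8 tumor reads (percent, linear axes that differ between panels) held by each segment in every mouse and side, stacked as the leading clone (red) and all other clones of the segment (grey). The red part makes up 97.4 and 97.5% of TRBV23 in mouse 5, and 87.3 and 89.7% of TRBV30 in mouse 8, and is absent in the other mice.

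The CD4 leaders were smaller. The TRBV23 TRBJ1-1 clone of mouse 6 was larger in dLN (1.12 and 1.33%) than in tumors (0.465 and 0.496%), and it made up 48.1 and 51.7% of the TRBV23 reads in these dLNs. TRBV23 held 2.34 and 2.57% of the CD4 dLN reads of mouse 6, and 1.21 and 1.24% without this clone, in both cases above the 0.762 to 0.937% of the other 3 mice. The TRBV17 TRBJ2-7 clone of mouse 5 held 0.469 and 0.400% of CD4 tumor reads and 0.0861 and 0.172% of CD4 dLN reads. The TRBV30 TRBJ2-1 clone of mouse 8 held 0.2004 and 0.250% in tumors and 0.00411 and 0.00159% in dLNs. The TRBV24 TRBJ2-7 clone of mouse 8 held 0.0814 and 0.0830% in tumors and 0.00868 and 0.00350% in dLNs, and it supplied 42.3 and 40.0% of the TRBV24 reads of these tumors although its segment carries the germline stop.

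The largest clone of a segment took a median of 43.9% of the TRBV23 reads in a CD8 tumor repertoire, and 17.3%, 32.4% and 18.7% for TRBV17, TRBV24 and TRBV30. In CD8 dLN these medians were 4.28% for TRBV23 and 0.634%, 5.32% and 4.54% for the other 3. Clones above 0.1% of a repertoire were few: 17 of the 17393 member clones counted over the CD8 tumor repertoires (0.0977%), against 0.169% of the clones of other V segments, and 3 of 12961 (0.0231%) in CD8 dLN against 0.0134%. In CD4 tumors they were 29 of 3367 (0.861%) against 1.16%, and in CD4 dLN 17 of 3298 (0.515%) against 0.402%.

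To ask whether clonal growth in the tumor lifts a rare segment, the read share of each segment was divided by its clone share. A ratio above 1 means that the clones of the segment hold more reads than the average clone. In CD8 tumors, TRBV17 had a ratio of 0.260 to 1.31 (median 0.561), against 1.14 to 1.31 (median 1.30) in CD8 dLN, where it ranked 1 of 23. The mean of the log2 ratio was lower in tumors by 1.23 ± 0.45 on the log2 scale (log2 difference -1.23, adjusted p = 0.0405, limma), and lower in 4 of 4 mice. With the mouse as a block the call was lost (adjusted p = 0.0566, limma), as it was without mouse 5 (log2 difference -0.88), without mouse 7 (-1.29) or without mouse 8 (-1.14), whereas without mouse 6, which carries the TRBV17 leader, it was -1.62 and passed.

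The other 3 members did not pass in CD8. TRBV23 ran from 0.147 to 11.7 in CD8 tumors (median 0.722) against 0.772 to 1.12 in dLN (log2 difference -0.01 ± 1.11, adjusted p = 0.99, limma), and its difference was -1.16 without mouse 5, which carries the TRBV23 leader, 0.80 without mouse 6, 0.52 without mouse 7 and -0.22 without mouse 8, none of them called. TRBV30 ran from 0.117 to 4.62 (median 0.331) against 0.759 to 0.853 (-0.74 ± 0.90, adjusted p = 0.501, limma), and passed without mouse 8 (-1.76, adjusted p = 0.0441, limma), while it was -0.22, -0.20 and -0.76 without mice 5, 6 and 7 and did not pass. TRBV24 ran from 0.0996 to 1.02 (median 0.304) against 0.432 to 0.608 (-0.80 ± 0.70, adjusted p = 0.361, limma), and was -0.36, -1.09, -1.41 and -0.35 without mice 5, 6, 7 and 8, none of them called. In each of these segments the tumor repertoires lay on both sides of the dLN range. In CD4, none of the 4 passed (0 also at an unadjusted p under 0.05), with log2 differences from -0.47 to -0.02, although TRBV17 did without mouse 5 (-0.67, adjusted p = 0.0412, limma). Of all tested segments, 52.2% were called in CD8 and 4.35% in CD4.

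TRBV24 held the fewest reads per clone of the 23 segments in CD4 dLN (ratio 0.452 ± 0.0657), CD4 tumor (0.341 ± 0.0809) and CD8 dLN (0.501 ± 0.0491) and ranked 18 in CD8 tumor (0.447 ± 0.417). There its ratio was 0.481 to 1.02 in mice 6 and 7 and 0.0996 to 0.126 in mice 5 and 8, and the largest TRBV24 clone held 53.1 to 87.5% of the segment's reads in mice 6 and 7 and 5.87 to 11.8% in mice 5 and 8.

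When the largest clone of each segment was left out for each mouse and subset, the ratio of all 4 members was lower in CD8 tumor than in dLN and passed the test (log2 differences of -1.22, -1.26, -1.02 and -0.87 for TRBV17, TRBV23, TRBV24 and TRBV30). After this removal 73.9% of all tested segments were called, so the 4 calls did not set the members apart. The read share of TRBV23 and TRBV30 then turned from above to below that of the dLN (log2 ratios of -0.93 and -0.92, adjusted p = 0.0116 and 0.0124, edgeR), where 73.9% of all segments were called by reads. The removed clone was the one with the highest share summed over the tumors and dLNs of a mouse. Where it was larger in the tumors, as each CD8 leader was, the removal itself took the larger share from the tumors.

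**Figure D3:**
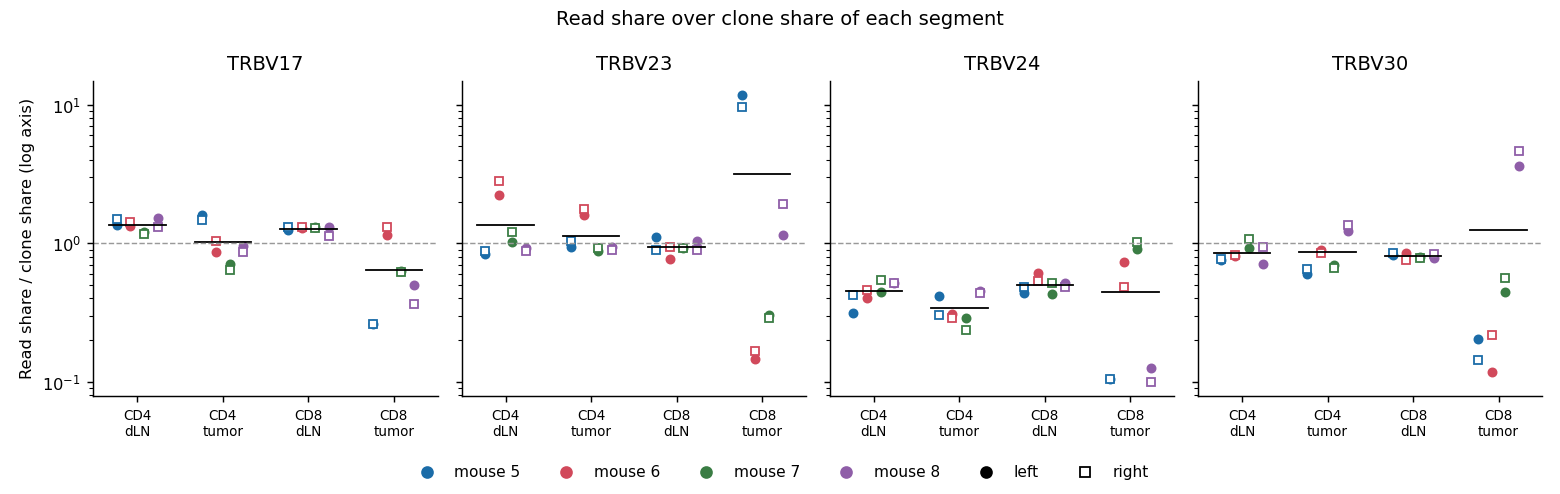
Read share divided by clone share of each segment in every repertoire (log axis), by group, with the mouse in color, filled circles for the left side, open squares for the right side and black lines for the mean of the 4 mice; the dashed line marks a ratio of 1. CD8 dLN ratios stay between 0.432 and 1.31, while CD8 tumor ratios reach 11.7 for TRBV23 in mouse 5 and 4.62 for TRBV30 in mouse 8, and fall to 0.147 and 0.117 for these segments in other repertoires.

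For each member, the shares of left and right tumors of one mouse were on average closer than those of different mice. In CD8 tumors, the mean absolute log2 ratio of left over right read share was 0.33 within mice and 3.48 between mice for TRBV23, 0.18 and 1.25 for TRBV17, 0.36 and 2.17 for TRBV24, and 0.46 and 2.57 for TRBV30. In CD8 dLN the values were 0.28 and 0.24, 0.12 and 0.13, 0.37 and 0.39, and 0.06 and 0.09. In CD4 tumors they were 0.19 and 0.54 for TRBV23, 0.08 and 0.55 for TRBV17, 0.33 and 0.53 for TRBV24, and 0.10 and 0.82 for TRBV30. The distance within mice was the smallest of all 24 pairings for TRBV17, TRBV23 and TRBV24 in CD8 tumors and for TRBV17 and TRBV30 in CD4 tumors (exact permutation test, one-sided, p = 0.0417, the smallest p that 4 mice allow). Adjusted over the 16 comparisons the p was 0.133, so none passed. A pass would need most of the 16 comparisons at the smallest p, so this result says little.

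The share of reads in clones common to both tumors of a mouse varied widely between mice for the members in CD8. Such clones held 51.1% ± 27.1 of the CD8 tumor reads of TRBV17, 56.5% ± 44.7 for TRBV23, 48.6% ± 41.9 for TRBV24 and 45.3% ± 39.9 for TRBV30, against 82.9% ± 6.21 for all other V segments. The spread between mice was wide, from 15.6 to 98.7% for TRBV23, and these shares were not tested. In CD4 the shares were 77.9% ± 3.75, 86.5% ± 3.38, 62.8% ± 7.06 and 79.9% ± 11.6, against 84.6% ± 2.95. By clones rather than reads, the clones of each side were counted separately, so a clone on both sides counted once for each side. Counted so, 14.3% of TRBV17, 11.5% of TRBV23, 6.53% of TRBV24 and 11.2% of TRBV30 CD8 tumor clones were also on the other side, against 14.1% of the others. The shares of distinct clones of a mouse found on both sides are lower than these values.

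Among the 4 members, CDR3 length set TRBV30 apart. Its distinct clones were shorter than those of the other V segments pooled in all 4 groups, by 0.91 ± 0.05 residues in CD4 dLN, 1.27 ± 0.08 in CD4 tumor, 0.90 ± 0.02 in CD8 dLN and 1.04 ± 0.02 in CD8 tumor (differences of -0.91, -1.27, -0.90 and -1.04, adjusted p = 4.94e-05, 0.000118, 2.52e-06 and 1.89e-06, limma). Of the 23 tested segments, 10, 11, 10 and 11 were called shorter than the rest in these groups. The mean length of TRBV30 was 12.9 ± 0.152, 12.6 ± 0.205, 13.0 ± 0.0345 and 13.0 ± 0.0421 residues in these groups. Its most frequent length was 12 residues in CD4 and 13 in CD8, against 14 for all other V segments pooled, for TRBV17 and TRBV23 in all groups, and for TRBV24 except in CD8 tumor, where it was 15. The V part of TRBV30 contributed 11.6 bases in CD8 tumor clones against 13.6 for other V segments, while the bases between V and J were 9.51 against 10.0 and the J bases 18.0 against 18.5. The largest of these differences was that of the V part, whose germline stretch is 3 bases shorter than in the other 3 members.

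TRBV17 was longer than other segments in all 4 groups, by 0.14 to 0.24 residues (adjusted p = 1.89e-05 to 0.00194, limma). TRBV23 was longer by 0.14 ± 0.05 in CD4 tumor, 0.26 ± 0.03 in CD8 dLN and 0.19 ± 0.01 in CD8 tumor and did not pass in CD4 dLN (0.17 ± 0.08, adjusted p = 0.0961, limma). Its CD4 tumor call was lost without mouse 5 (0.10), mouse 6 (0.15) or mouse 7 (0.14), and it passed in CD4 dLN without mouse 7 (0.27). TRBV24 was longer by 0.44 ± 0.06 in CD4 dLN, 0.29 ± 0.10 in CD8 dLN and 0.17 ± 0.06 in CD8 tumor and did not pass in CD4 tumor (0.10 ± 0.07, adjusted p = 0.241, limma). Its CD8 dLN call was lost without mouse 5, 7 or 8 (adjusted p = 0.118, 0.0877 and 0.133, limma), and its CD8 tumor call without mouse 6 (adjusted p = 0.146, limma). Such calls were common among all tested segments, at 73.9% in CD4 dLN, 82.6% in CD4 tumor, 91.3% in CD8 dLN and 91.3% in CD8 tumor. The median difference over all segments was within 0.06 residues of 0 in each group, which follows largely from comparing each segment with the rest. When clones were weighted by reads, the sign of TRBV23 in CD8 tumor turned (-1.49, adjusted p = 0.269, limma).

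**Figure D4:**
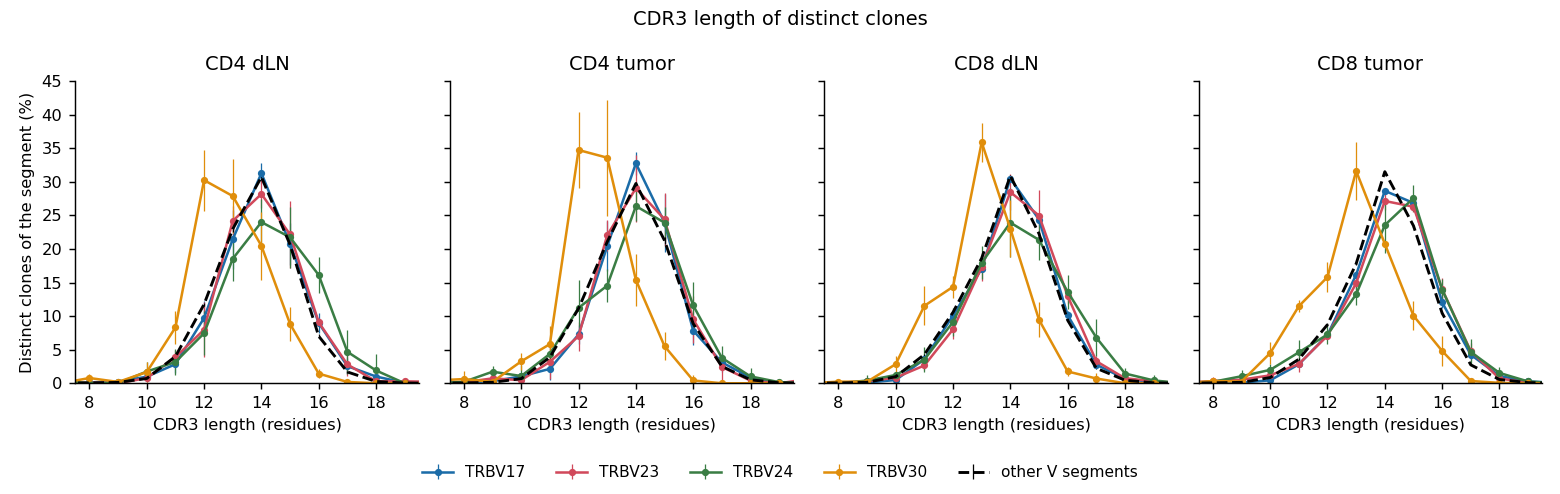
Percent of the distinct clones of each segment by CDR3 length in residues, one panel per group, as the mean of 4 mice with error bars of 1 SD; the dashed line is all other V segments. TRBV30 peaks at 12 residues in CD4 and 13 in CD8, left of the 14-residue peak of the pooled other V segments; TRBV24 peaks at 15 in CD8 tumor.

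Between groups, TRBV17 clones were longer in CD8 tumors (14.3 ± 0.0259 residues) than in CD8 dLNs (14.1 ± 0.0508), by 0.23 ± 0.03 (adjusted p = 0.000425, limma), and the repertoires did not overlap. The other 3 members did not pass in CD8 tumor against dLN, where 73.9% of all segments were called. None of the 4 passed in CD4 tumor against dLN, where 34.8% were called, although TRBV17 and TRBV24 were under an unadjusted p of 0.05 (differences of 0.09 and -0.23, adjusted p = 0.0715 and 0.106, limma). CD4 clones were shorter than CD8 clones in tumors for TRBV17 (-0.24 ± 0.03), TRBV23 (-0.20 ± 0.04) and TRBV30 (-0.38 ± 0.09), and in dLNs for TRBV17 (-0.10 ± 0.03) and TRBV23 (-0.23 ± 0.09), with adjusted p from 5.56e-05 to 0.0455 (limma). With the mouse as a block the TRBV17 call in dLN was lost (adjusted p = 0.0774, limma) and TRBV24 in tumors passed (-0.23, adjusted p = 0.00912, limma). The dLN calls of TRBV17 and TRBV23 were also each lost without 1 mouse, TRBV17 without mouse 6, 7 or 8 (adjusted p = 0.0791, 0.0938 and 0.100, limma) and TRBV23 without mouse 5, 6 or 8 (adjusted p = 0.0529, 0.155 and 0.0743, limma). Calls gained in this way were TRBV23 in CD8 tumor against dLN without mouse 6 (0.10), TRBV30 in dLN without mouse 6 (-0.21), TRBV24 in tumor CD4 against CD8 without mouse 8 (-0.25), and in CD4 tumor against dLN TRBV17 without mouse 5 (0.13) and TRBV24 and TRBV30 without mouse 8 (-0.30 and -0.39). Of all segments 69.6% were called in tumors and 65.2% in dLNs.

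The TRBV23 leader of mouse 5 was unusual in its CDR3. It held 27 bases, or 9 residues, of which 1 base was assigned to the J segment, and it did not end in phenylalanine or tryptophan. Of the TRBV23 clones of CD8 tumor libraries, 16 of 1996 (0.802%) did not end in phenylalanine or tryptophan, and they held 69.2% of the TRBV23 reads. The leader was 4 of these 16, once per library of mouse 5, and the TRBV23 clones other than the leader that ended so held 0.112% of the remaining TRBV23 reads. Among the V segments other than TRBV23, such clones were 0.158% of the CD8 tumor clones and held 0.0159% of the reads. The other clones printed above ended in one of these residues.

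The J partners of the members were compared as the share of a segment's distinct clones that use a J segment, against that share in all other V segments (log2 ratio, pairs with a mean of at least 10 clones per mouse, limma, adjusted over all V-J pairs of the group). Of the member pairs, 8 of 27 passed in CD4 dLN, 2 of 25 in CD4 tumor, 17 of 36 in CD8 dLN and 23 of 43 in CD8 tumor. Over all pairs, 33.7%, 19.6%, 58.7% and 56.8% passed, so the members were not called more often than other segments in any group. When each mouse was left out in turn, 31 of the 50 member calls held every time (a pair that fell under 10 clones counted as not held), with 0 of 8 in CD4 dLN, 1 of 2 in CD4 tumor, 12 of 17 in CD8 dLN and 18 of 23 in CD8 tumor.

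In CD8 dLN, all 6 TRBJ1 partners were used less often by TRBV17 than by other segments, and TRBJ2-1, TRBJ2-2, TRBJ2-5 and TRBJ2-7 more often. Among these, TRBJ1-4 was lost without mouse 5, 7 or 8 (adjusted p = 0.0646, 0.0839 and 0.0816, limma) and TRBJ2-7 whichever mouse was left out. TRBJ2-3 and TRBJ2-4 did not pass there (log2 ratios of -0.04 and -0.25), and in CD8 tumor TRBJ2-4 was lower (7.04% against 8.35%, -0.24 ± 0.05, adjusted p = 0.0110, limma). TRBJ2-2 was used by 8.55% ± 0.623 of its CD8 dLN clones against 5.01% of the others (log2 ratio 0.77 ± 0.05, adjusted p = 0.000175, limma), and TRBJ1-2 by 2.96% ± 0.182 against 5.73% (-0.95 ± 0.06, adjusted p = 0.000173, limma). In CD8 tumor the values were 9.18% ± 0.426 against 5.36% for TRBJ2-2 (0.78 ± 0.05) and 2.50% ± 0.260 against 5.04% for TRBJ1-2 (-1.003 ± 0.07), each with an adjusted p of 0.000444 (limma). In CD4 the extremes were smaller. TRBJ2-7 was the highest in CD4 dLN (22.2% against 18.7%, 0.25 ± 0.07) and TRBJ1-3 the lowest (4.05% against 5.80%, -0.52 ± 0.14), both called with 4 mice and lost without mouse 6, 7 or 8. In CD4 tumor TRBJ1-2 was lower (4.34% against 6.09%, -0.46 ± 0.11, called, and lost without mouse 6, 7 or 8) and TRBJ2-1 was the highest (14.2% against 10.7%, 0.41 ± 0.11, adjusted p = 0.0563, limma), which passed without mouse 6 (0.52, adjusted p = 0.0397) and with a pseudocount of 1 clone (0.42, adjusted p = 0.0492).

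TRBV30 clones were rich in TRBJ2-7 in all 4 groups. This J was used by 29.6% ± 7.23 of CD4 dLN, 33.5% ± 3.62 of CD4 tumor and 31.8% ± 3.27 of CD8 tumor clones of TRBV30, against 18.7%, 19.3% and 22.2% of other clones, with log2 ratios of 0.65 ± 0.13, 0.81 ± 0.08 and 0.52 ± 0.06 (adjusted p = 0.0108, 0.00216 and 0.00117, limma). The CD4 dLN call was lost without mouse 7 or mouse 8 (adjusted p = 0.0657 and 0.0809, limma). In CD8 dLN it passed as well, but the largest ratio was that of TRBJ2-1 (20.3% against 13.96%, 0.55 ± 0.05). TRBJ2-5 was the lowest partner in CD8 dLN (7.08% against 11.4%, -0.65 ± 0.05) and CD8 tumor (8.14% against 10.9%, -0.38 ± 0.07), and both passed, the latter not with the reads as deposited (-0.25, adjusted p = 0.0573, limma). In CD4 dLN TRBJ2-5 did not (13.4% against 13.2%).

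TRBV24 had enough clones for 11 pairs in CD8 tumor and for 3 to 5 pairs in the other groups. In CD8 tumor TRBJ1-2 (7.94% ± 1.49 against 4.93%, log2 ratio 0.71 ± 0.09), TRBJ1-6, TRBJ1-4, TRBJ1-3 and TRBJ2-3 were more frequent than with other segments, and TRBJ2-7 was less frequent (16.3% ± 0.823 against 22.2%, -0.42 ± 0.04, adjusted p = 0.000927, limma). Of these 6 calls, those of TRBJ1-2, TRBJ1-3 and TRBJ2-7 held without each mouse in turn, and TRBJ1-6 was under 10 clones per mouse without mouse 7 and held without each of the others. At the 3.15% of other segments, TRBJ1-6 would hold under 10 clones per mouse. It was thus tested only because of its raised share (4.83%), and its call is not counted as support. The lowest ratio was that of TRBJ2-2 (3.18% ± 2.17 against 5.51%, -1.12 ± 0.59), which varied between mice, did not pass with 4 mice and passed at -0.32 without mouse 5 (adjusted p = 0.0163, limma). In CD8 dLN TRBJ2-3 was high (13.4% against 8.60%, 0.66 ± 0.08) and TRBJ2-1 low (10.6% against 13.99%, -0.37 ± 0.11), both called. The TRBJ2-1 call was lost without mouse 5, 6 or 7 (adjusted p = 0.0729, 0.0996 and 0.0839, limma), with the reads as deposited (-0.34, adjusted p = 0.0536, limma) and among clones with at least 2 reads (-0.28, adjusted p = 0.168, limma). In CD4 no pair of TRBV24 passed with all 4 mice and a pseudocount of 0.5 clones, while TRBJ2-1 in CD4 dLN passed without mouse 5 (0.64, adjusted p = 0.0388, limma) and with a pseudocount of 1 clone (0.51, adjusted p = 0.0429, limma). At the 9.42% of other segments, this pair would hold under 10 clones per mouse, so it was tested only because of its raised share. A larger pseudocount also raises the ratio of a small pair by itself. Neither pass is counted as support. TRBV23 had 7 of its 41 pairs called over the 4 groups. Its largest deviations in CD8 tumor were TRBJ1-4 (9.35% ± 1.78 against 6.02%, 0.63 ± 0.11) and TRBJ1-3 (2.89% ± 0.537 against 4.27%, -0.52 ± 0.11), both called.

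**Figure D5:**
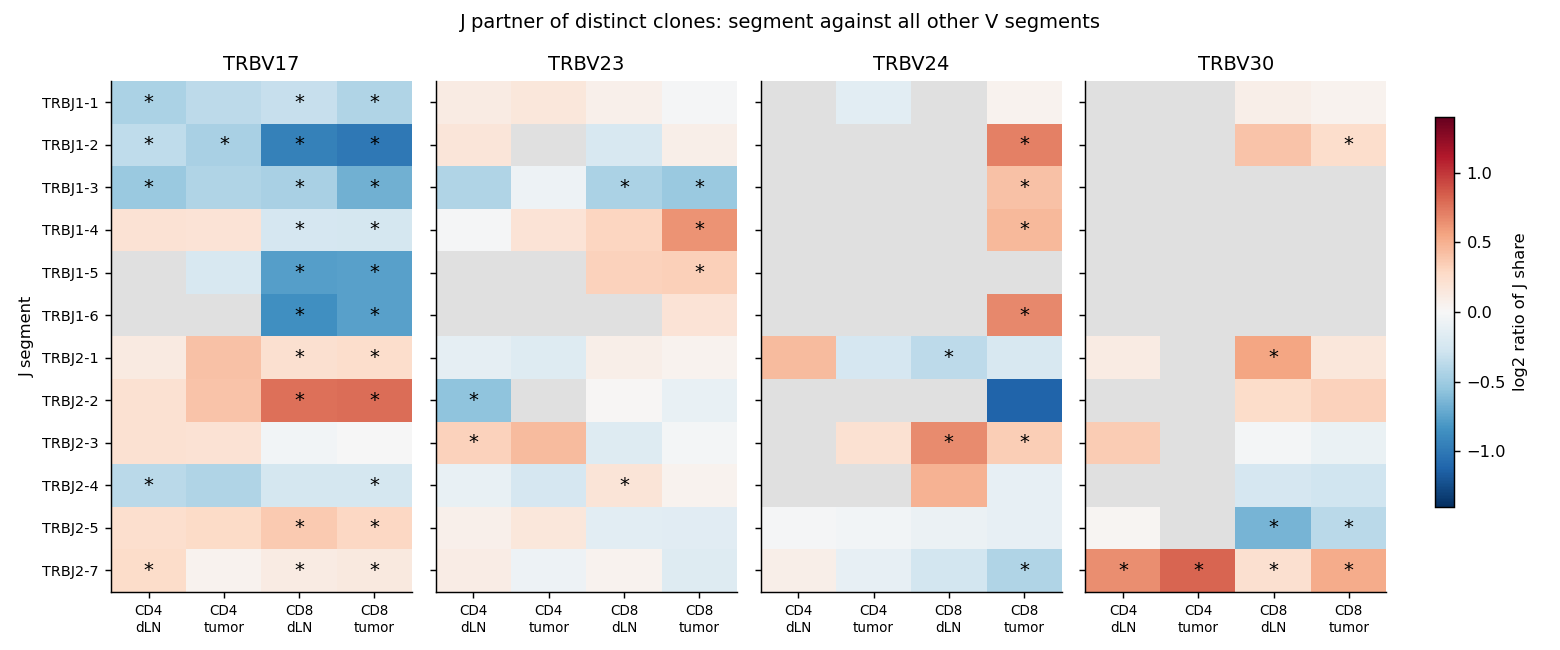
Log2 ratio of the share of distinct clones using each J segment, member segment against all other V segments, by group; red is higher, blue lower, grey pairs had a mean of fewer than 10 clones per mouse, and asterisks mark adjusted p under 0.05 (limma). TRBV17 is blue over the TRBJ1 partners in CD8, and TRBV30 is red at TRBJ2-7 in all 4 groups.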

How the data were processed

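TCRβ transcripts of sorted T cells were amplified and sequenced. According to the study's methods, the authors trimmed reads with Cutadapt (version 3.2 in the submitters' processing notes), filtered them with PRINSEQ and called productive clones with MiXCR against IMGT segments. The deposited tables list read counts per clone, and the same values as a fraction of the library total, without molecular identifiers, so intervals cover counting error only.

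Each library was subsampled, without putting reads back, to 6 reads for every sorted cell (cell numbers from the study), and tumor fragments were summed. For reads, clones and J partners, left and right were summed for each mouse, so a clone on both sides counted once for each side. Read to clone ratios and CDR3 lengths were means of both sides. Reads and clones per V segment were tested with edgeR 4.0.16 (quasi-likelihood, library totals) in R 4.3.3, over the 23 V segments with a mean of at least 10 clones per repertoire. Read to clone ratios, CDR3 lengths and J partners (pseudocount 0.5 clones) were tested with limma 3.58.1. A call is an adjusted p under 0.05 (Benjamini-Hochberg). Each group enters 2 of the 4 contrasts, so the contrasts share samples. The fits were tested on simulated data.

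The labels put samples with one number in the same mouse, so the numbers pair the samples. The deviations of paired samples from their group means correlated with r from -0.38 to 0.64 across V segments. Alternatives included a mouse block, TMM factors, DESeq2 1.42.0, exact permutation tests, the deposited reads, leaving out each mouse, and filters on clones. The interaction test and the filter on clones more frequent in the other subset were added after the data were seen.

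The members and lists were chosen with earlier results of these data known. The text names the 4 members, leading clones of each member and group, member clones above 1% of a mouse's tumors, and the extreme J partners. Other J partners were named after their values were seen.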

Additional observations from a re-analysis of the deposited data

Results flagged for a closer look

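In 4 of 48 groups of 4 mice (the read share, the clone share and the mean CDR3 length of each member in each group), 1 mouse stood apart from the other 3 by Dixon's criterion, which chance alone does in about 1 in 20 groups. TRBV23 held 2.45% of CD4 dLN reads in mouse 6, against 0.828 to 0.902% in the other 3 mice. TRBV23 held 6.33% of CD8 tumor reads in mouse 5, against 0.0860 to 0.781%. TRBV30 held 0.980% of CD8 tumor reads in mouse 8, against 0.0396 to 0.128%. In the same mouse TRBV30 was the lowest in CD8 dLN, at 0.219% against 0.237 to 0.241%.

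The change of clone share from dLN to tumor differed between the subsets for TRBV17, by -0.47 (log2, CD8 minus CD4, adjusted p = 2.08e-06, edgeR), and for TRBV23, by 0.54 (adjusted p = 0.000153, edgeR).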

How the results depend on the processing

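Of 1142 member values with an adjusted p under an alternative, 959 kept their direction and their side of the threshold, 90 lost and 29 gained a call, 55 changed sign without a call on either side, and 9 changed sign with a call. DESeq2 gave 4 more values without an adjusted p, those of TRBV23 and TRBV30 by reads in CD8 tumor against dLN and in tumor CD4 against CD8. Without the largest clone of each V segment, the number of members called became 3 of 4 by reads in CD8 tumor against dLN, 2 in tumor CD4 against CD8, 4 for the CD8 and 2 for the CD4 read to clone ratio. Of all tested segments, 73.9%, 52.2%, 73.9% and 39.1% were then called in these comparisons. The log2 ratios of TRBV23 and TRBV30 by reads in CD8 then turned to -0.93 and -0.92, and that of TRBV23 in tumor CD4 against CD8 to 1.81. The removal takes the larger share from tumors wherever the removed clone is larger there.

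With TMM factors and with DESeq2, 2 members were called by reads in dLN. In the exact permutation test, 2 were called by clones in CD8 tumor against dLN and 0 by the CD8 read to clone ratio. That test can call a segment only if most tested segments reach its smallest possible p, so its result for the ratio says little. With the mouse as a replicate block, 0 were called by the CD8 read to clone ratio, and the other calls that the pairing changed were those of CDR3 length given above. Leaving out each mouse in turn gave 0 to 1 members called by reads in CD8, 0 to 1 by the CD8 ratio and 0 to 1 by the CD4 ratio, and a TRBV30 log2 read ratio in CD8 from -1.73 to 0.73.

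With reads in place of clones, calls fell to 1 of 16 for CDR3 length between groups, 7 of 16 for length against other V segments and 16 of 131 for J partners. The share of all segments and V-J pairs called in this way is not given here. The fall can therefore not be read as particular to the members. Among called values, the sign then turned for the TRBV23 length in tumor CD4 against CD8 (1.45 residues), the lengths of TRBV23 and TRBV24 against other V segments in CD8 tumor (-1.49 and -0.43), and the CD8 tumor pairs TRBV23 with TRBJ1-4 (-0.98) and TRBV24 with TRBJ1-2 (-1.72). It also turned for 6 values that were not called, among them the CD8 tumor against dLN lengths of TRBV23 (-1.59) and TRBV24 (-0.70). Where no cause is named, the cause was not tested. DESeq2 moved the median log2 ratio of all segments by 0.75 for reads in CD8 tumor against dLN, and TMM factors by 0.45.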
